A study of Mus musculus with 44 samples.

Results

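Ribosomal protein genes encode the proteins of the cytosolic ribosome, and their mRNA level was followed here in sorted dendritic cells of the tumour-draining lymph node. The genes were the table entries whose symbol is Rpl or Rps with a number, together with Rplp0, Rplp1, Rplp2 and Rpsa. After the number only a single letter (a, x, l or y) and further digits could follow. The genes had to reach 1 CPM (the unit of the table, a gene's share of all reads on genes) in at least 5 of the 44 libraries. Of 83 symbols of this form 81 passed, 49 of the large subunit and 32 of the small subunit, among 11963 genes in the table that passed the same filter. Rpl39l, the lowest gene inside the threshold, reached 1 CPM in 40 libraries, Rpl3l outside it in 3 and Rpl10l in 0. Fau and Rpl36al also encode ribosomal proteins or a copy of one, but their symbols are not of this form and they were counted with other genes of translation.

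Each library came from CD11C+ MHCII high cells of a lymph node (LN), which the study sorted from inguinal nodes as CD45+ cells 24 h after injection. WT mice given B16-F10-OVA melanoma cells (WT, 20 libraries), KO mice given the same cells (KO, 12 libraries) and WT mice given PBS alone (PBS, 12 libraries) were compared, each at Zeitgeber time (ZT, hours after lights on) 3, 9, 15 and 21, with 5 WT, 3 KO and 3 PBS libraries at each timepoint. The KO genotype is Clec9a-cre:Bmal1flox, in which Cre recombinase driven by the Clec9a promoter recombines the clock gene Arntl (Bmal1) in conventional dendritic cells, so other cells of these mice keep the gene. The study's numbers of mice equal the numbers of libraries, and it speaks of 2 independent experiments without saying which mice belonged to which, so p-values measure the spread between these samples. KO and PBS libraries share neither genotype nor treatment, and the WT libraries are the reference in both main comparisons.

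The cytosolic ribosome is built from ribosomal RNA and a large set of proteins, nearly all of which are made from a single gene and are needed in equal numbers. Their mRNAs are short, abundant and begin with a terminal oligopyrimidine (TOP) tract, a C followed by an unbroken stretch of C and T at the start of transcription, through which the kinase complex mTORC1 and the protein LARP1 control how much of them is translated. Dendritic cells raise protein synthesis early in maturation. A sequencing library of total mRNA measures the level of these mRNAs as a share of all reads, and it measures neither their translation nor the number of ribosomes.

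The 30 bases around the annotated start of transcription were read from the RefSeq promoter table (GRCm38.p6), which held 72 start sites of 61 of the 81 genes. They are shown for genes that the comparisons turn on, from 15 bases before the start to 14 bases after it, on the strand of the gene, with the longest unbroken run of C and T in capitals.
Rps6: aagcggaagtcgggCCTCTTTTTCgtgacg
Rplp2: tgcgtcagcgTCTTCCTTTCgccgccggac
Rpl7a: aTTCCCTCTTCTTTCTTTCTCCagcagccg
Rpl37: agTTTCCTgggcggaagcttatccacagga
Rpsa: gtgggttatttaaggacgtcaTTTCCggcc
Rps28: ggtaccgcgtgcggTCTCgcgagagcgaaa
Rpl7l1: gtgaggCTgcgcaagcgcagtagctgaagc
The windows lie at chr4:86857353-86857382 (minus strand) for Rps6, chr7:141447636-141447665 (plus) for Rplp2, chr2:26910792-26910821 (plus) for Rpl7a, chr15:5116598-5116627 (plus) for Rpl37, chr9:120127751-120127780 (plus) for Rpsa, chr17:33824548-33824577 (minus) for Rps28 and chr17:46782642-46782671 (minus) for Rpl7l1. The run spanned 10 bases in Rps6 and in Rplp2, and 21 in Rpl7a, the longest among these genes. The Rpl7a window lies at a start site inside the gene, whose first base is 26910685. It spanned 2 bases in Rpl7l1, whose product is a paralogue of RPL7 and is not a usual part of the ribosome. A run of 8 or more bases was present at 28 of the 72 start sites (38.9%) and at 12.4% of the start sites of all genes tested. The run was counted anywhere in the window. In Rpl4 (11 bases) and Rpl13 (9 bases), for example, it began 15 bases before the start and ended before it. These percentages are therefore not shares of start sites with a TOP tract.

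In the 300 bases from 250 before to 50 after the start, the ETS-factor motif CCGGAAG was found on either strand at 37.5% of the start sites of ribosomal protein genes and at 16.9% of those of all genes tested. The YY1 motif AAGATGG was at 16.7% and 7.03%, and the last bases of the ETS motif can overlap its first ones. The E-box CACGTG, the site of the BMAL1-CLOCK dimer, was at 8 of 72 start sites (11.1%), which belong to 6 genes, and at 9.64% of those of all genes tested. The Sp1 motif GGGCGG was at 61.1% and 61.2%, and TATAAA at 9.72% and 7.28%. These are matches of letters in 1 window and show no binding.

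The libraries held between 20088012 and 55799163 reads on genes, as recovered from the steps between the low CPM values. Depth and arm were not independent, because the deepest WT library (28962671 reads) was shallower than the shallowest KO library (29406729), so depth and genotype cannot be told apart. WT and PBS overlapped in depth only narrowly, since the shallowest PBS library held 28003328 reads. The median was 23707306 reads in WT and 37898704 in PBS, so depth and treatment can hardly be told apart either. All 11 dendritic cell markers listed for the sort, H2-Aa, Cd74 and Ccr7 among them, were in the table, and their summed level was 34363 to 53801 CPM over the WT libraries and 35160 to 45916 over the KO libraries. T cell markers (14 of 15 listed genes in the table) summed to 581 to 1017 CPM in WT, 669 to 1444 in KO and 729 to 1532 in PBS, and B cell markers (10 of 12) to 45.3 to 78.4, 58.5 to 173 and 75.5 to 128 CPM. NK cell markers (7 of 7) summed to 17.2 to 45.1 CPM in WT, 25.7 to 93.8 in KO and 68.1 to 405 in PBS, and plasma cell markers (4 of 4) to 2.17 to 15.2, 13.0 to 54.1 and 24.3 to 84.9 CPM. Immediate-early and heat-shock genes listed for dissociation stress (9 of 9) summed to 3003 to 5490 CPM in WT, 4889 to 8721 in KO and 6038 to 9491 in PBS. For these last 3 lists all WT libraries lay below all PBS libraries, and the part of the lists in the differences between arms was not tested. Arntl was not lower in the KO libraries. It stood at 14.8 ± 3.65 CPM in WT (SD, n = 20), 19.9 ± 6.91 in KO (n = 12) and 21.7 ± 6.11 in PBS (n = 12), a KO minus WT difference of 0.38 on the log2 scale (SE 0.12, limma adjusted p = 0.0153). A level over the whole gene does not show which exons were read, and the KO libraries are called here by their label.

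The 81 mRNAs differed widely in level per length of transcript. Over the 44 libraries the highest were Rps27 with 2650 CPM per kb, Rps19 with 2152 and Rpl13 with 1482, all parts of the ribosome itself. The lowest were Rpl39l with 2.67 CPM per kb, Rps15a with 25.7 and Rpl22 with 47.5. The paralogue copies Rpl7l1 and Rpl22l1 stood at 53.7 and 55.7 CPM per kb, against 477 for Rpl7 and 47.5 for Rpl22, and Rpl39l at 2.67 against 319 for Rpl39. Rps27l, which is induced by p53, stood at 796 CPM per kb against 2650 for Rps27. The length is that of the principal transcript in GENCODE, 878 bases at the median of the 81 genes and 2977 over all genes tested, and 5179 for Rps15a, whose low value per kb rests on that length.

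**Figure D1:**
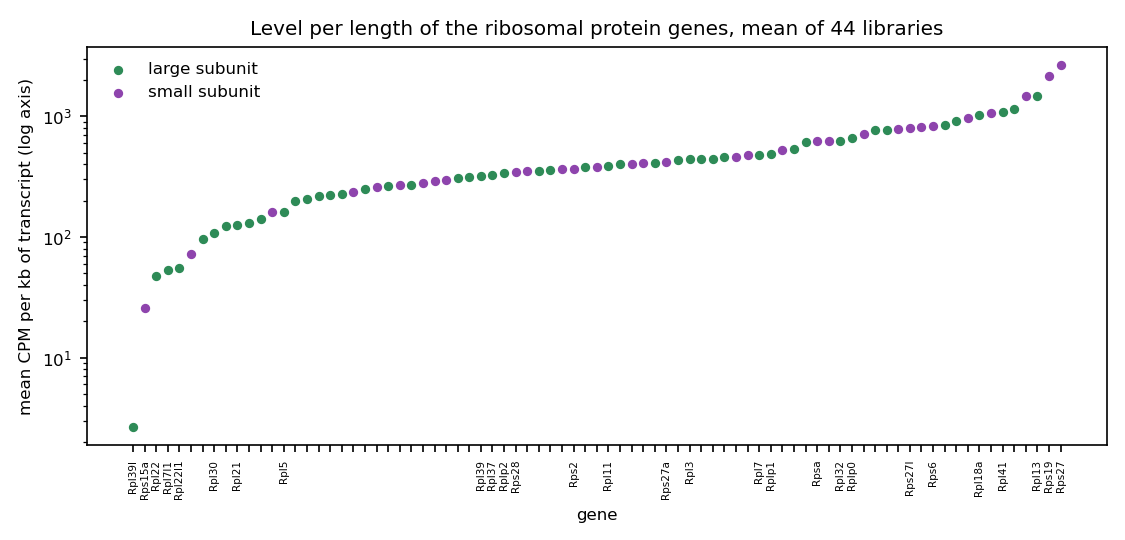
Mean CPM per kb of transcript over 44 libraries (log axis) for each of the 81 ribosomal protein genes, ordered by that level and coloured by subunit, with labels for genes named in the comparisons between arms. Rpl39l stands alone at 2.67 CPM per kb, and Rps27 is the highest at 2650.

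The ribosomal protein mRNAs moved together from library to library. After the 12 means of arm and timepoint had been subtracted, the median correlation between a pair of these genes was r = 0.92 over the 44 libraries, against 0.04 over all pairs of genes tested, and 87.4% of their variance lay on a single component. These points share libraries and a common total, so the values are descriptive. Rps27a, a ubiquitin fusion, followed the mean of the other genes most closely (r = 0.99). Rpl7l1 (r = -0.02), Rpl39l (0.40), Rpl4 (0.80) and Rpl22l1 (0.84) followed it least, and the paralogue copy Rps27l stood at 0.88.

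The library with the lowest level was KO ZT21 replicate 1, in which the 81 genes summed to 13207 CPM, and the highest was WT ZT3 replicate 3 with 48510 CPM, 3.67 times as much. The sum was 37082 ± 5706 CPM in WT (SD, n = 20), 27050 ± 5798 in KO (n = 12) and 32872 ± 4775 in PBS (n = 12). The KO libraries ranged from 13207 to 34277 CPM and overlapped both other arms, since the lowest WT library stood at 29818 and the lowest PBS library at 27167. Within the groups, other short genes varied with them. The mean of the 622 non-ribosomal genes with a transcript shorter than 1 kb correlated with the mean of the 81 genes at r = 0.93 over the 44 libraries, and that of the 3744 genes of 4 kb or longer at r = -0.60. Between arms the 622 short genes had a median KO minus WT difference of -0.0087, with 100 higher and 96 lower, and a median WT minus PBS difference of -0.12, with 51 higher and 219 lower, beside -0.48 and 0.14 for the 81 genes. Among the genes outside the family with the most similar pattern were Fau (r = 0.98), Atp5e (0.98), Cox6b1 (0.97) and Atp5l (0.96). Fau encodes a ribosomal protein fused to a ubiquitin-like protein, and the other 3 encode small subunits of ATP synthase and cytochrome oxidase. The T cell marker list correlated with the ribosomal protein mean at r = 0.40 within WT, 0.76 within KO and 0.49 within PBS, and the dendritic cell list at -0.28, -0.55 and -0.68. In the same order the values were -0.26, 0.09 and -0.64 for B cells, 0.05, 0.48 and 0.35 for NK cells, -0.11, 0.51 and -0.06 for plasma cells, and -0.39, -0.50 and 0.01 for dissociation stress. The granulocyte, erythroid and melanoma lists lay between -0.14 and 0.48. These correlations are over 20, 12 and 12 libraries, and the part of these lists in the results was not tested.

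**Figure D2:**
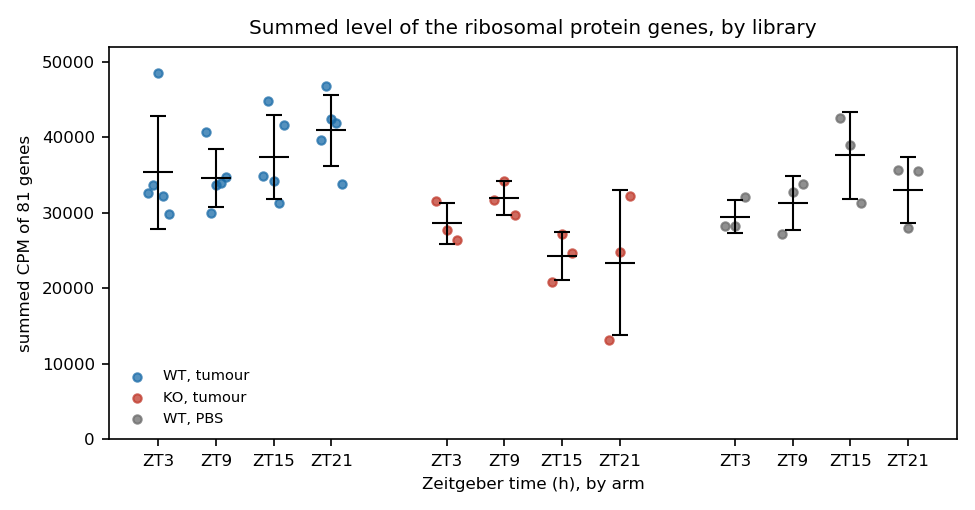
Summed CPM of the 81 ribosomal protein genes in each library (points), by arm and Zeitgeber time, with mean and SD in black (n = 5 in WT, 3 in KO and PBS). WT ZT3 replicate 3 is the highest point at 48510 CPM and KO ZT21 replicate 1 the lowest at 13207 CPM.

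Most ribosomal protein mRNAs took a smaller share of the reads in KO than in WT mice with tumour cells. Averaged over the timepoints, 68 of the 81 genes were lower in KO and 3 were higher (limma on log2(CPM + 0.5), Benjamini-Hochberg adjusted p under 0.05 over all genes tested). These 71 genes compare with 33.7% of all genes tested, of which 10.2% were lower and 23.5% higher. The 68 comprised 40 of 49 large-subunit and 28 of 32 small-subunit genes. The median difference was -0.48 on the log2 scale over the 81 genes and 0.10 over all genes tested. With median-of-ratios scaling 69 were lower and 3 higher, while the split over all genes tested moved from 1218 lower and 2813 higher to 1753 lower and 1748 higher. In bulk samples a change in the share of cells and a change in the RNA of each cell cannot be told apart.

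Rpsa, the laminin-receptor protein of the small subunit (chromosome 9, 120127766 to 120132369 in mm10, the gene as RefSeq places it on GRCm38.p6), had the smallest p of the genes that were lower. It ranged from 1276 to 1865 CPM in WT (median 1467), from 432 to 1018 in KO (median 816) and from 844 to 1205 in PBS (median 1069). All KO and all PBS libraries lay below all WT libraries. The KO minus WT difference was -0.94 (SE 0.08, adjusted p = 7.41e-10, limma). Rps28, a small-subunit protein near the mRNA exit, ranged from 127 to 303 CPM in WT (median 179) and from 47.9 to 145 in KO (median 111). Its difference was -0.86 (SE 0.11, adjusted p = 1.31e-06), although the KO and WT ranges overlapped. Rpl3, a core protein near the peptidyl transferase centre, ranged from 573 to 775 CPM in WT (median 670) and from 291 to 577 in KO (median 457), a difference of -0.53 (SE 0.07, adjusted p = 5.57e-07).

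The P stalk recruits the translation factors, and all of its genes were lower in KO. Rplp0 ranged from 846 to 1442 CPM in WT and from 345 to 824 in KO with no overlap, a difference of -0.63 (SE 0.09, adjusted p = 2.28e-06). Rplp1 and Rplp2 differed by -0.66 and -0.48 (adjusted p = 0.000152 and 0.00159, limma). Rpl32, a large-subunit gene for which the study lists qPCR primers, ranged from 478 to 889 CPM in WT and from 194 to 597 in KO, a difference of -0.49 (SE 0.11, adjusted p = 0.00128). Rpl5 and Rpl11, which bind the smallest ribosomal RNA and MDM2, differed by -0.31 and -0.61 (adjusted p = 0.0136 and 6.67e-05), Rps6, the substrate of S6 kinase, by -0.37 (adjusted p = 0.000707), and Rps27a by -0.49 (adjusted p = 0.000748). The 4 genes whose KO libraries all lay below all WT libraries were Rpsa, Rplp0, Rpl8 and Rps10, against 0.468% of all genes tested.

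Rpl21, Rpl37 and Rpl7l1 were higher in KO. Rpl21 (chromosome 5) ranged from 106 to 170 CPM in WT (median 123), from 186 to 371 in KO (median 284) and from 267 to 477 in PBS (median 334), so the WT libraries lay below all others. The KO minus WT difference was 1.07 (SE 0.09, adjusted p = 8.63e-10). Rpl37 ranged from 132 to 242 CPM in WT, 151 to 429 in KO and 268 to 560 in PBS, and its difference was 0.82 (SE 0.11, adjusted p = 3.21e-06). Both are ordinary proteins of the large subunit. Rpl7l1 showed another order of the arms, with 109 to 142 CPM in WT, 106 to 152 in PBS and 160 to 207 in KO. All KO libraries lay above those of both other arms. Rpl21 and Rpl7l1 were the genes whose KO libraries all lay above all WT libraries, as did 0.435% of all genes tested. The Rpl7l1 difference from WT was 0.51 (SE 0.05, adjusted p = 7.88e-09). Rpl22l1 (difference -0.04, 95% interval -0.33 to 0.24), Rpl39l (0.27, -0.15 to 0.70) and Rps27l (-0.12, -0.33 to 0.09) did not pass the test, while their parents Rpl22, Rpl39 and Rps27 differed by -0.56, -0.65 and -0.55 (adjusted p = 0.000485, 0.000418 and 0.00113). The parent Rpl7 differed by -0.51 (adjusted p = 0.000281).

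**Figure D3:**
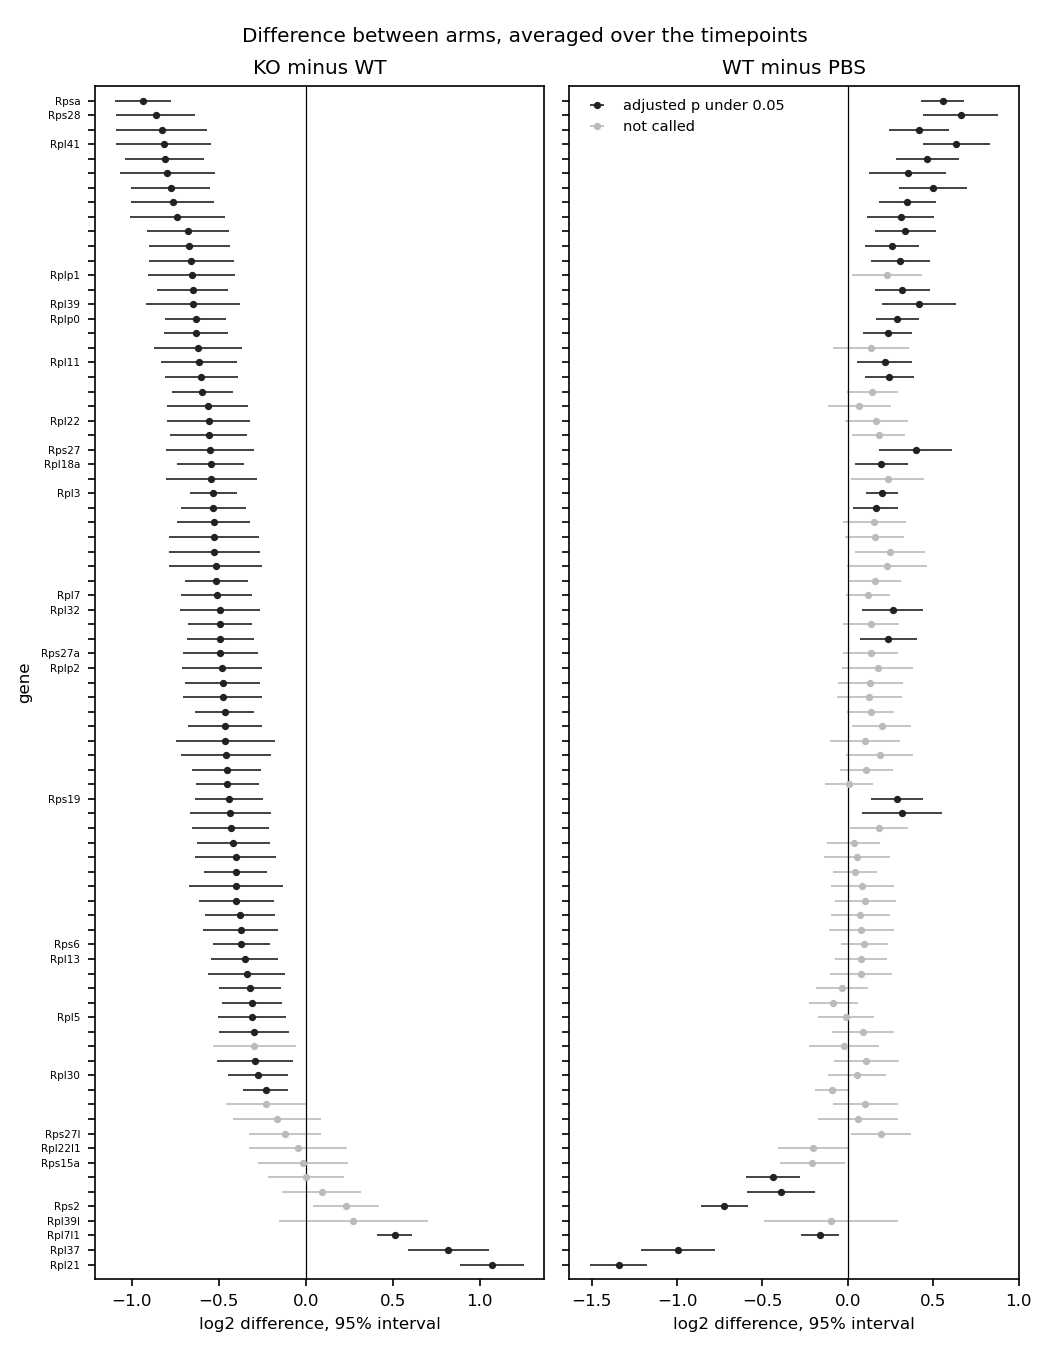
Log2 difference with 95% interval for each of the 81 genes, KO minus WT and WT minus PBS averaged over the timepoints, ordered by the former, with called genes in black and labels for genes named in these comparisons. Rpsa is the lowest in KO minus WT at -0.94, and Rpl21 is the highest there at 1.07 and the lowest in WT minus PBS at -1.34. Both panels use the same WT libraries.

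Ribosomal protein genes share sequence with processed pseudogenes. RefSeq names 316 pseudogenes after 63 of the 81 genes, 15 after Rpl21, 1 after Rpl37 and 1 after Rpl7l1. The CPM of 17 of the 81 genes, and of 11.7% of all genes tested, came to a fraction of a read in over 50% of the libraries. Between 70.4% and 77.8% of the 81 values per library were whole reads in WT, 77.8% to 81.5% in KO and 76.5% to 82.7% in PBS. Of the 6 genes called lower in WT than in PBS, 3 had such fractions and 4 had 10 or more pseudogenes. The 12 genes with 10 or more pseudogenes were split evenly in that comparison, 4 higher and 4 lower. Rplp2-ps1, a processed copy outside the family chosen after its values were seen, stood at 29.3 ± 8.07 CPM in WT (n = 20), 1.83 ± 0.920 in KO (n = 12) and 2.62 ± 0.942 in PBS (n = 12), and its WT libraries (16.5 to 53.0 CPM) lay above all others (0 to 3.54 CPM). Whether reads were assigned to copies in the same way in all arms was not tested. The median KO minus WT difference was -0.41 in the 12 genes with 10 or more pseudogenes (8 lower, 1 higher), -0.48 in the 51 with 1 to 9 (45 and 2) and -0.52 in the 18 with none (15 and 0). It was -0.31 in the 17 genes with fractional reads (12 lower, 1 higher) and -0.51 in the other 64 (56 and 2). The median WT minus PBS difference was 0.11, 0.13 and 0.18 in the 3 pseudogene classes, 0.06 with fractional reads and 0.16 without.

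At single timepoints the KO and WT means differed by different amounts, but the test of genotype by time called 0 of the 81 genes. The summed level was 28599 CPM in KO and 35368 in WT at ZT3, 31937 and 34627 at ZT9, 24250 and 37387 at ZT15, and 23412 and 40944 at ZT21. The median difference over the 81 genes was -0.27 at ZT3, -0.11 at ZT9, -0.62 at ZT15 and -0.88 at ZT21, and 71, 58, 75 and 77 genes lay below 0. Over all genes tested the medians were 0.08, -0.05, 0.25 and 0.12, and 40.1%, 54.3%, 27.0% and 39.5% lay below 0, so that at ZT9 both medians were below 0 and at the other timepoints they had opposite signs. These values per timepoint carry no test. The ZT21 median was -0.53 without KO ZT21 replicate 1, with 74 genes below 0 (37.6% of all genes tested), so that it lay near that of ZT15, which ran from -0.72 to -0.52 with 1 library left out. At ZT3 the median was -0.13 without WT ZT3 replicate 3, and at ZT9 it was -0.04 without WT ZT9 replicate 1 and -0.05 without KO ZT9 replicate 3. Without KO ZT21 replicate 1, the lowest library, 66 genes were lower and 4 higher over the timepoints, and the median was -0.39. Those calls are given without the share of all genes tested called in the same fit. Without replicates 1 and 3 of KO ZT21 together, which left 1 library in that group, the median was -0.44.

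Ribosomal protein mRNAs were on balance higher in WT mice with tumour cells than in WT mice given PBS, by less and in fewer genes. The WT libraries were also shallower than nearly all PBS libraries, and the part of depth in this comparison was not tested. Of the 81 genes 26 were higher and 6 lower (limma, adjusted p under 0.05), 32 in all, against 37.9% of all genes tested, 13.3% higher and 24.6% lower. Median-of-ratios scaling moved the split over all genes tested from 1589 higher and 2940 lower to 2079 and 2430, and that of the 81 genes to 27 and 5. The median difference was 0.14 over the 81 genes and -0.04 over all genes tested. By timepoint, with no test, it was 0.23 at ZT3, 0.12 at ZT9, -0.03 at ZT15 and 0.28 at ZT21. These medians moved with single libraries, to 0.09 at ZT3 without WT ZT3 replicate 3, to 0.06 and 0.04 at ZT9 without WT ZT9 replicate 1 or PBS ZT9 replicate 1, and to 0.16 at ZT21 without PBS ZT21 replicate 2, and the one at ZT15 ran from -0.17 to 0.08. Over all genes tested the medians were -0.09, 0.0041, -0.11 and -0.01. At ZT15 46 of the 81 genes lay below 0, where 60.4% of all genes tested did, and the summed level was 37387 CPM in WT and 37659 in PBS. Rpsa was higher by 0.55 (SE 0.06, adjusted p = 3.76e-08), and its WT and PBS ranges given above did not overlap, as was so for 0.418% of all genes tested in this direction. Rpl41, the shortest ribosomal protein, ranged from 587 to 1112 CPM in WT (median 763) and from 400 to 718 in PBS (median 491), a difference of 0.64 (SE 0.09, adjusted p = 5.64e-06). Rps28 ranged from 88.9 to 195 CPM in PBS and was higher in WT by 0.66 (SE 0.11, adjusted p = 1.75e-05).

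The genes lower in WT than in PBS were Rpl21, Rps2, Rpl37, Rpl7a, Rpl31 and Rpl7l1. Rpl21 differed by -1.34 (SE 0.08, adjusted p = 8.78e-13) and Rpl37 by -0.997 (SE 0.11, adjusted p = 2.16e-08), and neither had overlapping ranges, as was so for 1.73% of all genes tested. Rps2, a protein at the mRNA entry of the small subunit, ranged from 264 to 470 CPM in WT (median 314) and from 453 to 618 in PBS (median 539), a difference of -0.72 (SE 0.07, adjusted p = 2.29e-09). Rpl7l1 differed by -0.16 (SE 0.05, adjusted p = 0.0167), and -0.12 with median-of-ratios scaling, where it did not pass. Of the named genes, Rplp0 (0.29), Rpl32 (0.26), Rpl11 (0.21), Rps19 (0.29) and Rps27 (0.40) were higher in WT (adjusted p = 0.000549, 0.0184, 0.0309, 0.003 and 0.00328, limma). Rpl11 did not pass with library weights (0.16, adjusted p = 0.0757), or without PBS ZT9 replicate 1, PBS ZT15 replicate 3 or PBS ZT21 replicate 2 (adjusted p = 0.0668, 0.0776 and 0.0673, limma). Rplp1 (0.23, 95% interval 0.02 to 0.44, adjusted p = 0.0752), Rplp2 (0.18, -0.03 to 0.38), Rpl5 (-0.01, -0.17 to 0.15) and Rps6 (0.10, -0.04 to 0.23) did not pass, though Rplp1 did with an intensity trend (adjusted p = 0.0460, limma) and without WT ZT9 replicate 2 or PBS ZT15 replicate 1 (0.0476 and 0.0422).

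**Figure D4:**
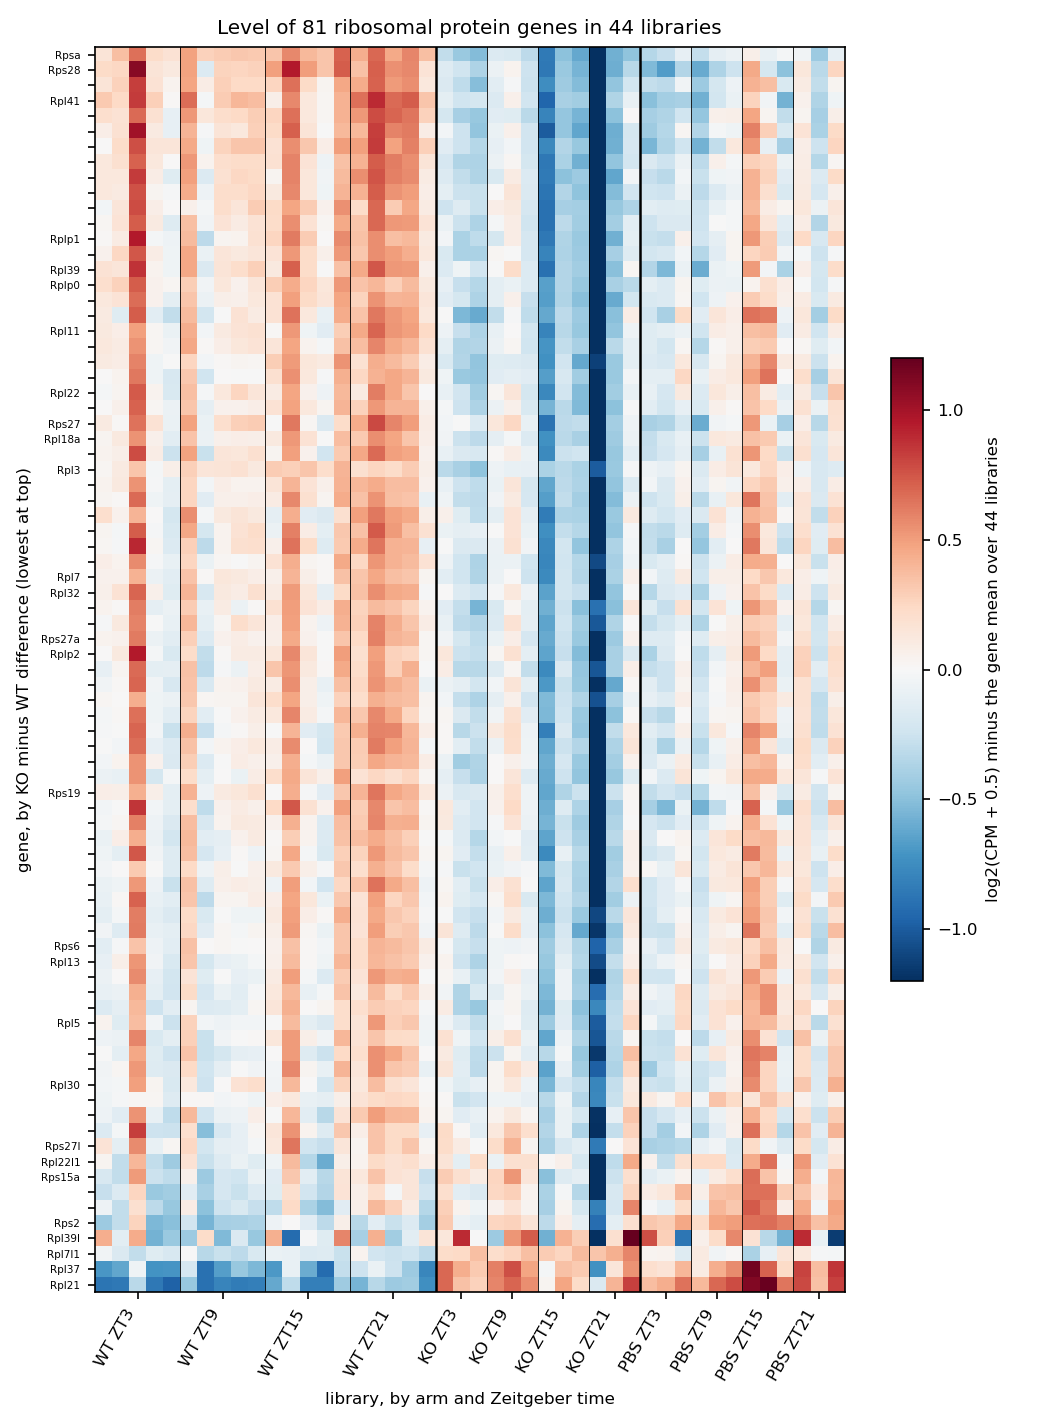
Deviation of log2(CPM + 0.5) from each gene's mean over 44 libraries for the 81 genes, ordered by the KO minus WT difference, with libraries grouped by arm and Zeitgeber time and labels for genes named in the comparisons between arms. Most genes share 1 pattern across libraries, KO ZT21 replicate 1 is the lowest column, and Rpl21 and Rpl37 at the bottom are low throughout WT.

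KO and PBS libraries were compared as well, after the data had been seen, because their depths overlap (29406729 to 55799163 and 28003328 to 49590055 reads). They differ in genotype and in treatment. Of the 81 genes 21 were lower in KO and 1, Rpl7l1, was higher (limma, adjusted p under 0.05), 22 in all, against 9.73% of all genes tested, 4.3% lower and 5.43% higher. Median-of-ratios scaling moved the split over all genes tested from 515 lower and 649 higher to 720 and 466, and that of the 81 genes to 29 and 1. The median difference was -0.33 over the 81 genes and 0.02 over all genes tested. Rpl7l1 differed by 0.35 (SE 0.06, adjusted p = 0.00381), and its KO and PBS libraries did not overlap, as was so for 0.0752% of all genes tested in this direction. Rpsa differed by -0.38 (SE 0.09, adjusted p = 0.0185), and Rpl21, which separated WT from both arms, by -0.27 (SE 0.11, adjusted p = 0.119). The number called was not stable, and it ran from 7 without KO ZT3 replicate 2, PBS ZT3 replicate 3 or PBS ZT15 replicate 2 to 59 without KO ZT21 replicate 3, and was 58 with library weights (20.8% of all genes tested). The counts with a library left out stand without the share of all genes tested called in those fits. At ZT3 and ZT9 the median differences were -0.03 and 0.01, and at ZT15 and ZT21 they were -0.65 and -0.63, values that carry no test. Over all genes tested they were -0.03, -0.05, 0.13 and 0.09. Of the 81 genes 48, 40, 79 and 79 lay below 0, where 54.1%, 57.7%, 40.2% and 41.4% of all genes tested did, and the ZT3 median of the 81 genes was close to that of all genes. With 1 library left out the median ran from -0.11 to 0.03 at ZT3, from -0.06 to 0.07 at ZT9 and from -0.79 to -0.55 at ZT15. At ZT21 it was -0.23 without KO ZT21 replicate 1, with 77 genes below 0 (39.8% of all genes tested), and -0.93 without KO ZT21 replicate 3.

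No ribosomal protein gene passed a test of change over the 4 timepoints within an arm when all libraries had equal weight, but some did in WT with library weights. In WT 0 of 81 passed the test of time (limma F test, adjusted p under 0.05), where 5.28% of all genes tested passed, and 1, Rpl4, had an unadjusted p under 0.05, where 23.1% did. Without WT ZT3 replicate 3, the highest library, 1 gene (Rpl29) passed and 41 had an unadjusted p under 0.05. No share of all genes tested is given for that fit, so these counts show only how far the numbers moved. With library weights, which give libraries that deviate more a smaller part in the fit, 19 of 81 passed (20.6% of all genes tested) and 63 had an unadjusted p under 0.05 (38.3%). The level was highest at ZT21 in 67 of the 81 genes (26.4% of all genes tested) and lowest at ZT9 in 49 (20.1%). The lowest timepoint was not stable. Without WT ZT3 replicate 3 it was ZT3 in 77 genes and ZT9 in 4, and without WT ZT9 replicate 2 it was ZT3 in 48 and ZT9 in 26, while ZT21 was the highest timepoint of 60 to 75 genes with 1 library left out. Rpl4, a protein of the peptide exit tunnel, stood at 641, 662, 677, 678 and 598 CPM at ZT3, at 673, 673, 652, 660 and 644 at ZT9, at 704, 729, 625, 619 and 698 at ZT15, and at 749, 781, 789, 785 and 678 at ZT21. All its ZT21 libraries lay above all its ZT9 libraries, as was so for 1.71% of all genes tested. The range of its timepoint means was 0.22 on the log2 scale (adjusted p = 0.209). Rpl29 and Rpl11 followed with ranges of 0.28 and 0.36 (adjusted p = 0.220 and 0.224).

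A 24-h cosinor in WT also called 0 of 81 genes, where 0.0251% of all genes tested passed. At an unadjusted p under 0.05 it held 1 gene (9.2% of all genes tested), and 44 with library weights (22.4%). Without WT ZT3 replicate 3 it held 33, given without the share of all genes tested in that fit. With all libraries the 1 gene was Rpl29, a small protein of the large subunit, with an amplitude of 0.18 (log2) and an acrophase at 18.5 h (adjusted p = 0.432). Rpl18 had an amplitude of 0.16 and an acrophase at 19.7 h (adjusted p = 0.569). The alternation of ZT3 and ZT15 against ZT9 and ZT21, which took in 9.5% of all genes tested, called 0 of 81, with Rpl17 (-0.24, adjusted p = 0.163) and Rpl11 (-0.20, adjusted p = 0.214) closest and 1 gene at an unadjusted p under 0.05 (24.6% of all genes tested). That number ran from 0 to 9 with 1 library left out, the 9 without WT ZT3 replicate 3, and was 25 with library weights (29.5% of all genes tested). The range stands without the shares of all genes tested in those fits. With those weights 3 genes passed the adjusted test (14.8%), among them Rpl11 and Rpl17 (adjusted p = 0.0286 and 0.0299, limma). Median-of-ratios scaling moved the alternating genes of the whole table from 279 higher and 858 lower at ZT3 and ZT15 to 517 and 494.

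ZT9 and ZT21, the times of injection that the study set against each other, gave the same sign throughout WT. All 81 genes had a lower mean at ZT9 than at ZT21, where 43.8% of all genes tested did, with a median of -0.25 (0.04 over all genes tested). None passed the adjusted test (0 of 81 against 0.226%), and 8 had an unadjusted p under 0.05 (11.5% of all genes tested). With library weights 3 passed (3.95% of all genes tested) and 71 had an unadjusted p under 0.05 (25.3%). Rpl4 differed by -0.19 (SE 0.08, adjusted p = 0.358) and Rpl29 by -0.28 (SE 0.12, adjusted p = 0.375). The genes vary together, so their 81 signs are not independent. Without WT ZT9 replicate 2 the number at an unadjusted p under 0.05 was 1, while without WT ZT21 replicate 5 it was 40. These counts stand without the share of all genes tested in the same fits.

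In KO the means lay the other way. The level was highest at ZT9 in 77 of 81 genes (17.4% of all genes tested) and lowest at ZT21 in 71 (21.1%). Without KO ZT21 replicate 1 the lowest timepoint was ZT15 in 79 genes and ZT21 in 0, and ZT9 was the highest in 73. With all libraries 80 genes were higher at ZT9 than at ZT21, where 36.9% of all genes tested were. The median difference was 0.57 (-0.12 over all genes tested, which median-of-ratios scaling moved to 0.00 and the 81 genes to 0.70). None passed the adjusted test (0 of 81 against 0.00836%), and 14 had an unadjusted p under 0.05 (10.9% of all genes tested), which became 38 with library weights (18.8%). In 9 genes all ZT9 libraries lay above all ZT21 libraries, as they did in 3.69% of all genes tested. Rps28 stood at 127, 120 and 109 CPM at ZT3, at 135, 145 and 119 at ZT9, at 77.6, 104 and 95.8 at ZT15, and at 47.9, 93.9 and 112 at ZT21. Rps28 was among the 9, with a difference of 0.73 (SE 0.28, adjusted p = 0.409). Rps14, which binds the platform of the small subunit, stood at 626, 640 and 513 CPM at ZT9 and at 173, 431 and 458 at ZT21, a difference of 0.86 (SE 0.33, adjusted p = 0.413).

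The 3 KO libraries of ZT21 had the largest SD of the 12 groups (9577 CPM), with sums of 13207, 24828 and 32202 CPM. Without replicate 1 the median ZT9 minus ZT21 difference was 0.18 and 0 genes had an unadjusted p under 0.05, and without replicate 3 it was 0.85 and 76 had. The medians and shares over all genes tested are not given for these omissions. T cell markers summed to 901, 995 and 1444 CPM in these libraries and to 738, 796 and 826 CPM in the KO libraries of ZT9, and their part in the result was not tested. The test of time in KO called 0 of 81 genes (0% of all genes tested) and 0 had an unadjusted p under 0.05 (10.3%), with Rps28, Rps14 and Rpsa closest (adjusted p = 0.533, 0.558 and 0.564). The cosinor called 0 of 81 (0%), 4 had an unadjusted p under 0.05 (10.5%), and Rps28 had an amplitude of 0.41 and an acrophase at 7.22 h (adjusted p = 0.443). The alternation called 0 of 81 (0%), and 0 had an unadjusted p under 0.05 (6.97%). Without KO ZT21 replicate 3 the numbers at an unadjusted p under 0.05 were 37 for time and 63 for the cosinor, and without replicate 1 they were 2 and 3. The 10.3% and 10.5% belong to all libraries, and no share of all genes tested is given for these omissions.

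In PBS the level was highest at ZT15 in 72 of 81 genes (29.1% of all genes tested) and lowest at ZT3 in 67 (18.7%). The sum was 29512 ± 2193 CPM at ZT3, 31258 ± 3579 at ZT9, 37659 ± 5768 at ZT15 and 33061 ± 4386 at ZT21 (SD, n = 3 each). The tests of time, cosinor, alternation and ZT9 against ZT21 each called 0 of 81 genes and 0% of all genes tested. At an unadjusted p under 0.05 they held 0, 1, 0 and 0 of the genes, against 7.44%, 7.38%, 5.76% and 5.32% of all genes tested. Without PBS ZT15 replicate 3 they were 14 for time and 28 for the cosinor, counts given without the share of all genes tested in that fit. Rps27l, Rpl8 and Rpl36a were closest for time (adjusted p = 0.709, 0.715 and 0.715), and Rpl36a had a cosinor amplitude of 0.29 with an acrophase at 16.8 h (adjusted p = 0.670). The median ZT9 minus ZT21 difference was -0.08 (0.03 over all genes tested), and 68 of 81 genes lay below 0 (45.5% of all genes tested). Its sign rested on 1 library, since without PBS ZT9 replicate 1 the median was 0.0057 with 42 genes above 0, and it was -0.03 and -0.04 without PBS ZT21 replicate 1 or 3 and -0.21 without PBS ZT21 replicate 2.

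**Figure D5:**
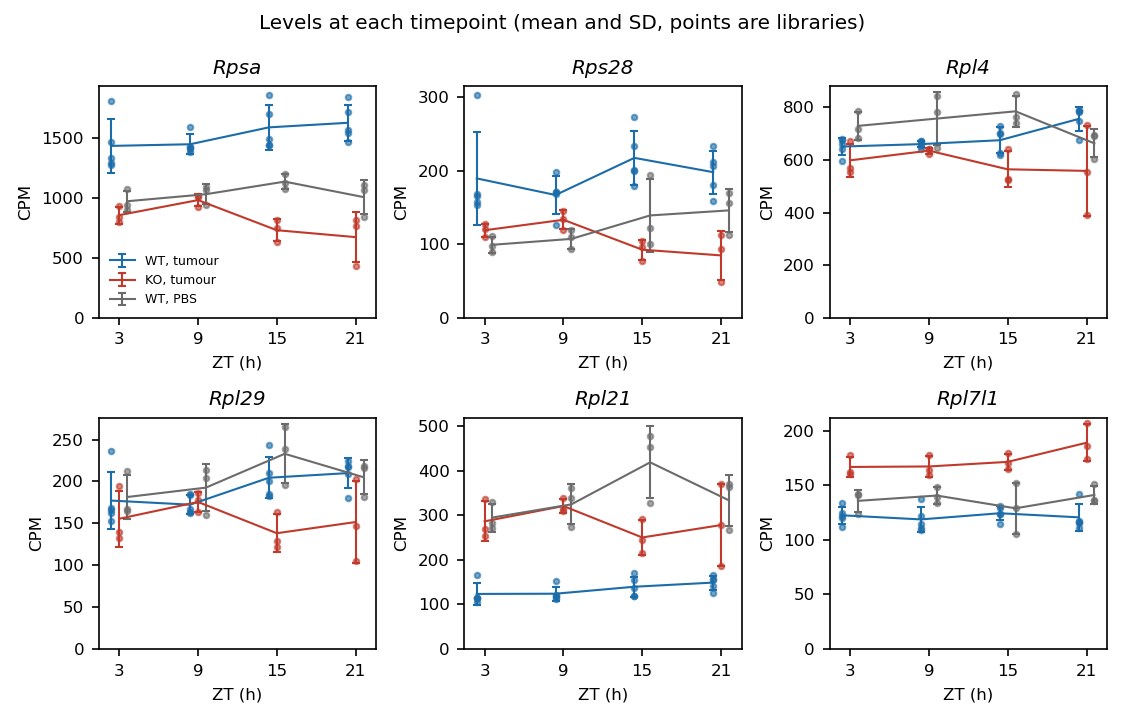
CPM of 6 ribosomal protein genes at each Zeitgeber time in WT, KO and PBS (points are libraries, lines join means, bars are SD). Rpsa lies highest in WT, Rpl21 lowest in WT and Rpl7l1 highest in KO at all timepoints, while Rps28, Rpl4 and Rpl29 overlap between arms at some timepoints.

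Whether the pattern over time differed between arms was tested by interaction. For genotype by time 0 of 81 genes passed (0.0502% of all genes tested), and 39 had an unadjusted p under 0.05, where 18.3% of all genes tested did. Rpsa and Rps14 were among the closest, with adjusted p = 0.149 and 0.176 (limma F test). The number at an unadjusted p under 0.05 was 12 without KO ZT21 replicate 1 and 79 without KO ZT21 replicate 3. The 18.3% belongs to the fit with all libraries, and these omissions stand without a share of all genes tested. With library weights 34 genes passed the adjusted test (8.95% of all genes tested). For treatment by time 0 of 81 passed (0%), and 1, Rpl4, had an unadjusted p under 0.05 (adjusted p = 0.283, limma), where 11.9% of all genes tested did. That number was 0 without PBS ZT21 replicate 2 and 4 without PBS ZT15 replicate 3, again without a share of all genes tested.

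Other genes of translation were followed as 2 lists. Of 22 genes with known TOP mRNAs outside the family, 14 were lower in KO than in WT and 0 higher (10.2% and 23.5% of all genes tested), with a median of -0.23 (0.10 over all genes tested). Eef1a1, the factor that delivers aminoacyl-tRNA, stood at 3696 CPM in WT and 2267 in KO (difference -0.72, SE 0.07, adjusted p = 1.49e-08), and Eef2, the translocase, at 866 and 610 (-0.51, SE 0.05, adjusted p = 2.09e-08). Against PBS, 3 of the 22 were higher in WT and 3 lower (13.3% and 24.6% of all genes tested), with a median of -0.02 (-0.04 over all genes tested). Ribosome biogenesis genes, which process ribosomal RNA and assemble the subunits, lay the other way. Of 46 tested, 27 were higher in KO than in WT and 1 lower (23.5% and 10.2% of all genes tested), with a median of 0.30 (0.10 over all genes tested). In WT against PBS 0 were higher and 29 lower (13.3% and 24.6%), with a median of -0.31 (-0.04). Nop58, a core protein of box C/D small nucleolar particles, stood at 24.5 CPM in WT, 43.4 in KO and 45.3 in PBS (KO minus WT 0.80, SE 0.09, adjusted p = 1.3e-07). Between KO and PBS 0 of the 46 were higher and 3 lower (5.43% and 4.3% of all genes tested), with a median of -0.01, while 7 of the 22 TOP genes were lower and 0 higher, with a median of -0.25.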

How the data were processed

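The study prepared SMART-Seq v.4 and Nextera XT libraries from 1 ng of total RNA and sequenced single-end reads. The authors aligned them with STAR to mm10, counted with HTSeq (0.9.1; both tools are named in the submitters' processing notes) and deposited 1 table of CPM for 44 libraries, which is already scaled to the total on genes, so the values are shares. Reads were recovered from the steps between CPM values within 0.01 of a whole read. Since only 88.7% to 91.4% of values came out whole, no count test was run. The kit does not mark strand, so reads of a gene and an antisense partner cannot be told apart.

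Genes that reached 1 CPM in 5 or more libraries were tested with limma (3.58.1, R 4.3.3) on log2(CPM + 0.5) with empirical Bayes variances and Benjamini-Hochberg adjustment over all 11963 genes, and called at an adjusted p under 0.05. Time was tested in each arm alone (F test of 4 timepoints, 24-h cosinor, 12-h alternation, ZT9 minus ZT21), arms in 32 libraries (24 for KO against PBS) as a difference averaged over timepoints, and interactions by F test. Log2 differences understate changes of low genes. The scripts were tested on simulated data. Replicate numbers were not used as a block.

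The genes, lists and tests were chosen with earlier results of these data known. Named genes were the P stalk, Rpsa, Rpl32, Rpl5, Rpl11, Rps6, Rps27a, paralogue copies with their parents, the 3 highest and 3 lowest by CPM and by CPM per kb, and the 2 or 3 smallest p-values in each test (3 per direction between arms). Genes withheld from the text are not reported here. Python 3.11.15 with pandas 2.3.3 was used for summaries and matplotlib 3.10.9 for figures. Alternatives were other pseudocounts (1 and 0.1), median-of-ratios scaling, a total without these genes, no filter or a mean of at least 10 CPM, an intensity trend, library weights, the replicate block and leaving out each library.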

Additional observations from a re-analysis of the deposited data

Results flagged for a closer look

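Among 38 named genes and their summed level, each at 4 WT timepoints with 5 libraries (156 sets of values), 28 sets had a library far from the others by Dixon's criterion. Chance gives about 1 in 20 sets, and these genes vary together, so the sets are not independent. In 21 of them the library was WT ZT3 replicate 3, the highest of its group. Its summed level was 48510 CPM, with 29818 to 33637 in the other 4 libraries. Its values were 452 CPM for Rplp1, 617 for Rplp2, 910 for Rps6, 493 for Rps27a, 726 for Rpl7, 158 for Rpl22, 341 for Rpl39, 131 for Rpl30, 185 for Rps15a and 237 for Rpl29. They were 529 CPM for Rpl18, 303 for Rps28, 1017 for Rps14, 167 for Rpl21, 471 for Rpl8, 134 for Rpl36a, 439 for Rpl6, 478 for Rpl27, 242 for Rpl37 and 470 for Rps2. This library also had the highest dendritic cell marker sum of its group, 53801 CPM. In 6 sets the library was WT ZT9 replicate 1, the highest of its group, with 1597 CPM for Rpsa, 389 for Rpl5, 914 for Rps6, 421 for Rpl17, 152 for Rpl21 and 375 for Rpl8. In the last set WT ZT21 replicate 1 had 142 CPM of Rpl7l1, with 111 to 118 in the other libraries.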

How the results depend on the processing

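No ribosomal protein gene passed a test of time or an interaction under the scaling, pseudocount, filter and trend alternatives. With library weights 19 passed for time in WT, 3 for the alternation in WT, 3 for ZT9 against ZT21 in WT and 34 for genotype by time, and the cause was not tested. Leaving out 1 library gave 0 to 1 for time in WT, the 1 being Rpl29 without WT ZT3 replicate 3. With 1 library left out the number called was 70 to 73 in KO against WT and 28 to 36 in WT against PBS. In KO against PBS, a comparison chosen after seeing the data, 22 were called (9.73% of all genes tested), and 58 with library weights (20.8%). The number was 37 with a mean of at least 10 CPM, 45 with an intensity trend and 13 with the replicate block. It was 7 to 59 when 1 library was left out. Counts under the filter, trend, block and omissions stand without shares of all genes tested, and show only how far the numbers moved. Replicate numbers did not pair the samples, since the median correlation of same-numbered libraries was -0.01 within WT and 0.01 across arms. The block gave 72 calls in KO against WT and 32 in WT against PBS, where Rpl7l1 (-0.14) no longer passed. Genes near 0 changed sign. WT minus PBS of Rpl5 was 0.038 with median-of-ratios scaling, 0.047 with the block and -0.053 to 0.018 with 1 library left out. That of Rpl30 was -0.0099 with weights and that of Rpl39l -0.23 to 0.025 with 1 library left out. KO minus WT of Rpl22l1 was 0.035 with weights, 0.0040 without replicates 1 and 3 of KO ZT21, and -0.16 to 0.10 with 1 library left out, and that of Rps15a was 0.093, 0.051 and -0.11 to 0.11. Without the 17 genes with fractional reads the summed CPM was 27674, 30109 and 32665 in WT at ZT9, ZT15 and ZT21, 22482, 25117 and 19119 in KO at ZT3, ZT9 and ZT15, and 23528, 24742, 29856 and 25994 in PBS at ZT3 to ZT21. Leaving genes out lowers every sum, so these falls do not measure how stable the sums were. The sums of WT at ZT3 and KO at ZT21, the groups of the highest and lowest library, fell as well and are not listed. Of the other values for named genes, 25 newly passed and 17 no longer passed under some alternative. WT libraries were shallower than KO libraries without overlap, which limits low genes such as Rpl39l most.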
